A study of Homo sapiens with 6 samples.

Results

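The genes described here are neighbours of ARID1A on the short arm of chromosome 1 (1p). The list names 57 genes that lie between CDC42, on the side of the arm's end, and EPB41, on the side of the centromere. Members were the rows whose symbol is on that list, and 56 of the 57 were found among 23273 rows per library. MTFR1L has no row under that symbol; its older symbol FAM54B has one and is described with the unlisted neighbours. The list was selected on the difference between parental and ARID1A-deficient libraries, around a stretch of genes that was lower as a whole, to ask for a shared shift such as a change in the number of gene copies. The members' differences between groups are therefore given as a description, without p-values, and they support no finding by themselves.

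ARID1A encodes a DNA-binding subunit of SWI/SNF, a complex that moves nucleosomes and opens chromatin at enhancers and promoters, and its loss is recurrent in pancreatic cancer. Its neighbours on 1p share no pathway. They encode, among others, splicing proteins, transcription factors, regulators of actin and microtubules, kinases and enzymes of lipid and glycan synthesis. Neighbouring genes can shift together when a stretch of chromosome is lost or gained, since transcript levels follow the number of gene copies to a varying degree, and also when the chromatin of a whole domain changes. Gene copies were not measured here, so fewer copies and less RNA per copy cannot be told apart.

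Messenger RNA was profiled in a pancreatic cancer line of human origin, L3.6pl, which is an established line grown here in medium with fetal calf serum. The 3 parental libraries are labelled as wild type, and the 3 libraries of the other group are labelled ARID1A-deficient and titled as a knockout. The labels name neither the way the gene was disrupted nor the number of clones, and no sample restores ARID1A, so effects of ARID1A and other differences between the cells cannot be told apart. The 3 libraries of a group are described as triplicates, and the labels do not say that they came from separate cultures, so standard errors and p-values measure only the spread between these libraries, which may be technical.

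Values are in FPKM, a measure of fragments per length of transcript that is scaled for each library. The libraries held 15635 to 16391 rows above 0, and their depth relative to parental library 1, estimated from the spacing of the lowest values, ranged from 0.719 to 1.30. The fragments counted per library are unknown here. The 6 ductal epithelial markers (KRT8, KRT18, KRT19, KRT7, EPCAM and CDH1) were all measurable, with summed levels of 6286 to 9831 FPKM in parental and 4527 to 5723 FPKM in ARID1A-deficient libraries. The 6 fibroblast markers summed to at most 0.303 FPKM and the 5 leukocyte markers to at most 0.407 FPKM in any library, with DCN and LUM at 0 in all and PTPRC at most 0.0442 FPKM. The 4 endothelial markers summed to 8.43 to 10.0 FPKM in parental and 8.64 to 9.23 FPKM in ARID1A-deficient libraries, and CDH5 was the highest of them in every library (6.22 to 8.09 FPKM). PECAM1, the other measurable one, went from 1.91, 2.18 and 1.93 FPKM to 1.11, 1.205 and 1.39 FPKM and passed as lower in limma. Their part in the members' values was not tested. In these bulk samples, fewer cells of a kind and less RNA per cell cannot be told apart.

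ARID1A itself was at 11.8, 6.76 and 9.42 FPKM in the parental group (libraries 1, 2 and 3). The ARID1A-deficient group had 3.55, 3.28 and 3.61 FPKM. Every ARID1A-deficient library lay below every parental library, and the mean was 2.68-fold lower (log2 fold change -1.18, SE 0.18, limma adjusted p = 0.00610 over 12826 tested genes). With single libraries left out the adjusted p reached 0.0342 at most. ARID1A is not a member, and log2 fold changes here are ARID1A-deficient minus parental of log2(FPKM + 1), so that changes of genes near or under 1 FPKM come out too small.

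Most members were slightly lower in ARID1A-deficient cells. Of the 56 members, 52 reached the mean of 0.5 FPKM needed for the fit, and 45 of these 52 had a log2 fold change below 0, against 52.2% of all tested genes. The median log2 fold change was -0.26, with quartiles of -0.46 and -0.11, beside -0.01 over all tested genes. All 3 ARID1A-deficient libraries lay below all 3 parental libraries for 30 members and above them for 2 members, where the background over all tested genes was 18.6% lower and 16.7% higher. In limma, with Benjamini-Hochberg adjustment over all tested genes, 15 members passed as lower (background 8.11%) and 1 as higher (background 7.82%, or 15.9% in either direction). These counts restate the choice of the stretch. Leaving out parental library 1, 2 or 3 gave 12, 24 and 3 members that passed as lower. The number was 4, 3 and 3 when ARID1A-deficient library 1, 2 or 3 was left out. The share lower over all tested genes moved too. Without parental library 1, 2 or 3 that share was 6.23%, 16.4% and 3.61%. Without ARID1A-deficient library 1, 2 or 3 it was 4.67%, 3.83% and 3.42%. PIGV, RUNX3 and RPS6KA1 passed whichever library was left out, as did GRHL3, the single member that passed as higher. GRHL3 reached the minimum mean only through the ARID1A-deficient group, so its call supports nothing.

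**Figure D1:**
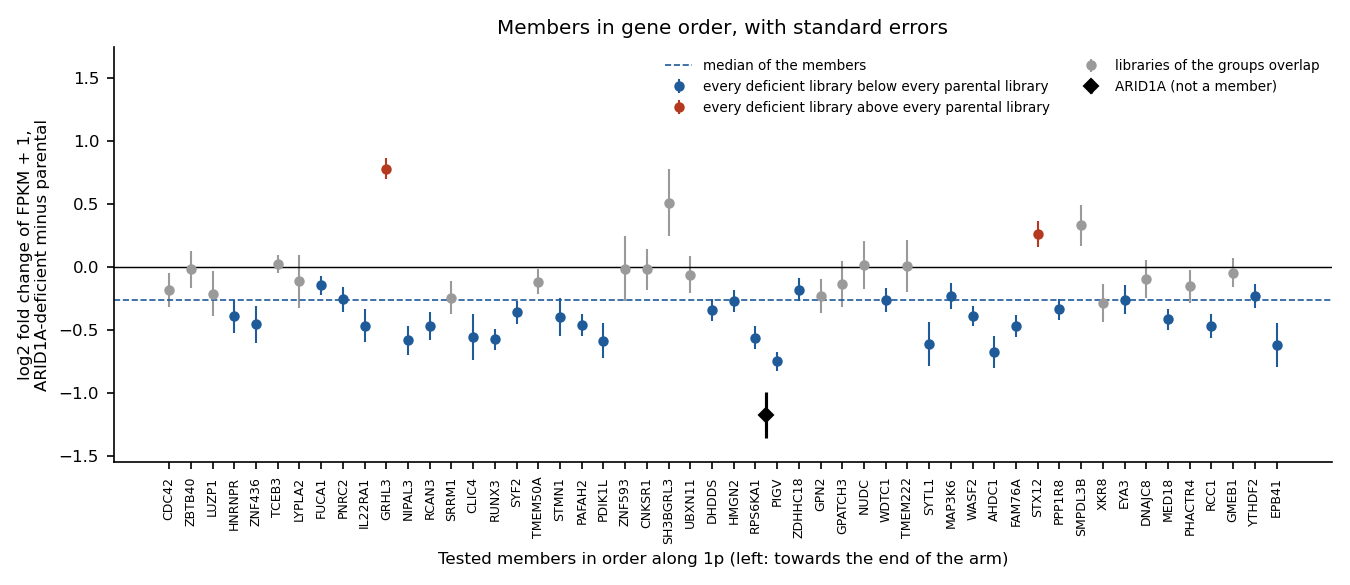
Log2 fold change of each tested member (ARID1A-deficient minus parental, FPKM + 1) with its standard error, in gene order along 1p, n = 3 libraries per group. Blue points are the 30 members with every ARID1A-deficient library below every parental one, red points the 2 with the opposite, grey points those that overlap. Most points sit under 0 around the dashed median of -0.26, ARID1A (diamond) is lower than any member at -1.18, and GRHL3 and SH3BGRL3 stand highest.

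The 4 members under the minimum mean were TCEA3, an elongation factor gene listed at 0 in 5 libraries and 0.0594 FPKM in the sixth, EXTL1, MAN1C1 and ASAP3. EXTL1, a glycosyltransferase gene, was at most 0.0878 FPKM in any library. MAN1C1, a Golgi mannosidase gene, was at most 0.197 FPKM. ASAP3, which encodes a GTPase-activating protein for ARF, measured 0.467, 0.429 and 0.576 FPKM in parental and 0.277, 0.161 and 0.211 FPKM in ARID1A-deficient libraries, so its groups do not overlap although it was not tested. At the edge of the list, the first member CDC42 had a log2 fold change of -0.18 and the tested gene just outside it, LINC00339, -0.22. The last member EPB41 had -0.62, and TMEM200B just outside it had -0.46.

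The member with the lowest log2 fold change was PIGV, the nearest member to ARID1A on the centromere side and the gene for a mannosyltransferase that builds the GPI anchor of surface proteins. In parental libraries its values were 18.8, 19.5 and 20.3 FPKM, and in the ARID1A-deficient ones 10.8, 11.7 and 11.1 FPKM. The groups are well apart, with means of 19.5 ± 0.757 and 11.2 ± 0.424 FPKM (SD, n = 3 each), 1.74-fold lower with a log2 fold change of -0.75 (SE 0.08). PIGV ranks lowest only with 1 FPKM added. By the ratio of means, the less abundant tested members AHDC1 (2.03-fold), IL22RA1 (1.98-fold), PDIK1L (1.83-fold) and FAM76A (1.81-fold) were further down. On the other side of ARID1A lies RPS6KA1, which encodes the kinase RSK1 downstream of ERK. It measured 25.7, 28.2 and 25.2 FPKM against 16.1, 18.8 and 17.8 FPKM, again without overlap, and was 1.503-fold lower (log2 fold change -0.56, SE 0.09).

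Promoter sequences are shown as examples for these 2 neighbours of ARID1A, for SH3BGRL3 as the member with the highest log2 fold change at a mean of at least 3 FPKM, and for STMN1 as the most abundant member. Each runs from 250 bases before to 50 bases after the start in RefSeq on build GRCh38, 5′ to 3′ on the gene's strand, and capitals mark the GC box letters GGGCGG on either strand, where matches can overlap. The coordinates are chr1:26787299-26787598 (+) for PIGV, chr1:26529511-26529810 (+) for RPS6KA1, chr1:26279836-26280135 (+) for SH3BGRL3 and chr1:25906370-25906669 (-) for STMN1.
PIGV: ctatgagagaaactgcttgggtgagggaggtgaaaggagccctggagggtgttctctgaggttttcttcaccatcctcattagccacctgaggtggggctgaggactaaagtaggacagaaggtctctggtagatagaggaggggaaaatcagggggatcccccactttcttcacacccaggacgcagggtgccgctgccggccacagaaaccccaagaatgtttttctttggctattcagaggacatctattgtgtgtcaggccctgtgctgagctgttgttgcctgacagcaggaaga
RPS6KA1: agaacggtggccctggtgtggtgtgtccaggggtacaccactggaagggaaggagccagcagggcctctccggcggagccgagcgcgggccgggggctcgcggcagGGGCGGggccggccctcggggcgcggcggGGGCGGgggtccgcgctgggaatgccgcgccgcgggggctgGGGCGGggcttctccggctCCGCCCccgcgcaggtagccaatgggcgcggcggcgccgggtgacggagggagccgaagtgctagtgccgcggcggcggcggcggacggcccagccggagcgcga
SH3BGRL3: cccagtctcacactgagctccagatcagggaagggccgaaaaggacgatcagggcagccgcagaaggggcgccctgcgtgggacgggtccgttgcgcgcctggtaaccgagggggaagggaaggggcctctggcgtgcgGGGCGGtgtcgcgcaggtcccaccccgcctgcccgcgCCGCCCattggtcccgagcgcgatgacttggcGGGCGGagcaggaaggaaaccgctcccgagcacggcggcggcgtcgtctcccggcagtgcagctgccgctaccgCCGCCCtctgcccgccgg
STMN1: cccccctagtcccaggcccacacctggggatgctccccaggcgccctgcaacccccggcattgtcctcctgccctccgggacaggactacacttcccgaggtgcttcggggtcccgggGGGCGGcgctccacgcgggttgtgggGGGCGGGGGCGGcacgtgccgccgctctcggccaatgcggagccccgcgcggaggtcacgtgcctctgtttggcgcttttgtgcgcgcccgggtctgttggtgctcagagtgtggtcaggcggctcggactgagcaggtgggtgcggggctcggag

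The PIGV window holds 3 CpG dinucleotides and no GC box, and those of RPS6KA1, SH3BGRL3 and STMN1 hold 44, 37 and 29 CpG dinucleotides and 4, 4 and 3 GC boxes. A promoter was given for 49 of the 52 tested members. Their median GC content was 65.3%, as for the 9732 tested genes with a promoter, and their median CpG number was 26 against 27. CpG numbers of the members ran from 3 to 46, so the PIGV window is at the lowest and that of RPS6KA1 near the highest. The GC box letters occurred in 67.3% of members and 71.0% of tested genes (44.6% of all 27305 promoters). The ETS letters CCGGAAG occurred in 26.5% against 20.1% (10.7% of all), and the AP-1 letters TGACTCA in 2.04% against 2.88% (4.92% of all), both strands searched. By these letters the members' start regions resemble those of other measured genes, and a match is a description of the letters only.

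Splicing, RNA-binding and RNA turnover genes gave 7 members, all tested and all with a log2 fold change below 0 (median -0.26), 2 of them past the threshold as lower (SYF2 and PPP1R8). HNRNPR, an hnRNP that binds pre-mRNA and the most abundant of this group, measured 95.4, 75.1 and 94.0 FPKM in parental and 73.3, 61.3 and 65.9 FPKM in ARID1A-deficient libraries. Its highest ARID1A-deficient value lay just under its lowest parental value, in parental library 2 (log2 fold change -0.39, SE 0.13). SYF2, a spliceosome component, was 1.30-fold lower (log2 fold change -0.36, SE 0.09), and PPP1R8, a nuclear inhibitor of protein phosphatase 1, 1.28-fold lower (-0.34, SE 0.09). The reader of methylated adenosine YTHDF2 and the splicing coactivator SRRM1 had log2 fold changes of -0.23 and -0.24, the decapping cofactor PNRC2 -0.26, and the spliceosomal co-chaperone DNAJC8 -0.09. The libraries of SRRM1 and DNAJC8 overlapped between the groups.

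Of the transcription factors and the transcription machinery, 10 of 11 members were tested, 8 below 0 and 2 above (median -0.15). RUNX3, a Runt-family transcription factor, measured 11.3, 10.5 and 10.8 FPKM against 6.87, 7.47 and 6.61 FPKM. Its groups were far apart relative to their spread, and it was 1.56-fold lower (log2 fold change -0.57, SE 0.08). AHDC1, an AT-hook DNA-binding protein gene, was 2.03-fold lower from 2.86 ± 0.538 to 1.41 ± 0.153 FPKM (SD, n = 3 each), and MED18, a subunit of the Mediator complex, 1.37-fold lower. The zinc finger gene ZNF436 (log2 fold change -0.45) and the coactivator and phosphatase gene EYA3 (-0.26) had groups without overlap but did not pass.

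GRHL3, a Grainyhead factor of epithelial barrier formation, went the other way. It measured 0.151, 0.249 and 0.250 FPKM in parental and 1.04, 1.15 and 1.09 FPKM in ARID1A-deficient libraries (log2 fold change 0.78, SE 0.08). All 3 ARID1A-deficient values were above the parental ones. The gene reached the minimum mean only through the ARID1A-deficient group, so its call as higher supports nothing. TCEB3, which encodes elongin A, measured 14.7, 14.7 and 14.1 FPKM against 14.9, 14.96 and 14.6 FPKM, overlapping and close (log2 fold change 0.03, SE 0.07). ZNF593, a short zinc finger gene and the most abundant of this group, measured 77.8, 145 and 90.1 FPKM against 79.2, 110 and 114 FPKM, a wide spread within both groups (log2 fold change -0.01, SE 0.26). ZBTB40 and GMEB1, both DNA-binding factor genes, were also within 0.05 of 0.

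Genes of chromatin, nuclear transport and assembly gave 6 tested members, 5 below 0 (median -0.25) and 1 past the threshold. That 1 was RCC1, the chromatin-bound exchange factor of Ran that drives nuclear transport. It measured 89.3, 91.1 and 90.02 FPKM in parental and 60.0, 67.8 and 66.9 FPKM in ARID1A-deficient libraries, with nearly equal parental values and no overlap (1.39-fold lower, log2 fold change -0.47, SE 0.10). HMGN2, a nucleosome-binding protein gene, was 1.21-fold lower from 44.8 ± 3.67 to 36.9 ± 0.735 FPKM (SD, n = 3 each), with groups apart but not past the threshold. The annotation names 36 pseudogenes of HMGN2, so its value is uncertain where reads were split among copies. The same limit holds for the other members among the 13 of 52 tested members with named pseudogenes. They include CDC42 with 6, CLIC4 and LYPLA2 with 3 each, HNRNPR, SRRM1, STMN1 and SYF2 with 2 each, and PPP1R8 with 1. NUDC, a dynein-associated co-chaperone gene, measured 121, 189 and 145 FPKM against 135, 168 and 152 FPKM, fully overlapping (log2 fold change 0.02, SE 0.19). GPN2, a GTPase of RNA polymerase assembly, and GPATCH3 also overlapped between the groups, while WDTC1, an adaptor of a ubiquitin ligase, did not (-0.26).

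Of 10 cytoskeletal members, 9 were tested, 8 of them below 0 (median -0.21), and only WASF2 passed. WASF2, which encodes the WAVE2 protein that starts branched actin growth, measured 20.0, 17.8 and 19.6 FPKM against 14.6, 13.9 and 14.6 FPKM (1.33-fold lower, log2 fold change -0.39, SE 0.08). STMN1, the microtubule-destabilizing protein stathmin and the most abundant member of all, measured 314, 414 and 372 FPKM against 269, 291 and 270 FPKM. Its groups do not overlap, but the parental spread is wide (log2 fold change -0.40, SE 0.15). CDC42, the small GTPase of cell polarity, measured 41.6, 55.8 and 48.7 FPKM against 41.2, 47.6 and 39.3 FPKM, overlapping.

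CLIC4, a chloride intracellular channel family gene, measured 37.7, 22.8 and 32.1 FPKM in parental and 22.7, 18.98 and 19.1 FPKM in ARID1A-deficient libraries (log2 fold change -0.56, SE 0.18). EPB41, protein 4.1 of the membrane skeleton, measured 9.29, 5.37 and 7.32 FPKM against 4.66, 4.03 and 4.30 FPKM (log2 fold change -0.62, SE 0.18). In both genes parental library 2 is the lowest parental value and lies closest to the other group. SH3BGRL3, a small SH3-binding-like protein gene, was the highest of this group and the reverse of it: 110, 206 and 127 FPKM against 162, 242 and 214 FPKM, overlapping through parental library 2 (log2 fold change 0.51, SE 0.27). LUZP1, PHACTR4 and UBXN11 had log2 fold changes from -0.21 to -0.06, with overlapping libraries.

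All 6 kinase, receptor and signalling members were below 0 (median -0.47), and 3 passed: RPS6KA1, RCAN3 and PDIK1L. RCAN3, a calcineurin regulator gene, was 1.64-fold lower from 2.45 ± 0.308 to 1.49 ± 0.176 FPKM, and PDIK1L, a kinase gene, 1.83-fold lower from 2.90 ± 0.615 to 1.58 ± 0.188 FPKM (SD, n = 3 each). IL22RA1, the receptor subunit that makes epithelial cells responsive to interleukin 22, measured 1.16, 1.73 and 1.05 FPKM against 0.596, 0.619 and 0.774 FPKM, without overlap. CNKSR1, a scaffold gene, overlapped fully (log2 fold change -0.02, SE 0.16), and MAP3K6, a stress-pathway kinase gene, was 1.19-fold lower without overlap.

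Among lipid, glycan and protein modification genes, 8 of 10 members were tested, 7 below 0 (median -0.23) and 3 past the threshold (PIGV, PAFAH2 and DHDDS). PAFAH2, a phospholipase that cleaves oxidized phospholipids, measured 4.17, 3.79 and 3.68 FPKM against 2.51, 2.55 and 2.58 FPKM (1.52-fold lower). DHDDS, a subunit of the enzyme that makes the dolichol chain for glycan transfer, was 1.30-fold lower. FUCA1, the lysosomal fucosidase gene, measured 11.3, 11.9 and 11.3 FPKM against 10.4, 10.2 and 10.3 FPKM, a small difference with tight groups (log2 fold change -0.14, SE 0.07). LYPLA2, a thioesterase that removes palmitate from proteins and the most abundant of the group, measured 42.4, 67.8 and 45.1 FPKM against 37.98, 53.6 and 50.04 FPKM, overlapping (log2 fold change -0.11, SE 0.21). SMPDL3B, a sphingomyelin phosphodiesterase family gene, was above 0 with 2.52, 3.79 and 3.34 FPKM against 3.72, 5.33 and 3.88 FPKM (log2 fold change 0.33, SE 0.17). Its groups overlapped. ZDHHC18, a palmitoyltransferase gene, had a log2 fold change of -0.18 without overlap, and XKR8, a lipid scramblase gene of apoptotic cells, -0.28 with overlap.

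The other tested members encode membrane, trafficking and other proteins, 4 of 6 below 0 (median -0.29), with NIPAL3 and FAM76A past the threshold. NIPAL3, a gene related to magnesium transporters, measured 6.55, 5.08 and 6.42 FPKM against 3.85, 3.72 and 3.46 FPKM (1.64-fold lower, log2 fold change -0.58, SE 0.12). SYTL1, a RAB27 effector of vesicle exocytosis, measured 29.3, 43.9 and 32.0 FPKM against 19.2, 25.7 and 22.6 FPKM, apart but with a high value in parental library 2 (log2 fold change -0.61, SE 0.17). STX12, a syntaxin of recycling endosomes, lay above: 4.19, 3.87 and 4.77 FPKM against 5.29, 5.68 and 5.00 FPKM, without overlap (log2 fold change 0.26, SE 0.10). TMEM222 and TMEM50A, both membrane protein genes, overlapped between the groups. TMEM222, the most abundant of these members, had 33.9, 54.6 and 35.9 FPKM against 33.9, 47.4 and 42.2 FPKM, with means of 41.4 ± 11.4 and 41.2 ± 6.81 FPKM (SD, n = 3 each). Within each of the 7 groups of roles the median was below 0, and members at or above 0 were GRHL3, TCEB3, SH3BGRL3, NUDC, TMEM222, STX12 and SMPDL3B. Under quantile scaling, centring on the other chromosomes or correction for transcript length, the direction of ZBTB40, CNKSR1, ZNF593, GMEB1, NUDC or TMEM222 flipped in at least 1 of them. Across 14 settings, which include each library left out, 37 members were below 0 in all and 5 above 0 in all. The other 10 changed sign in some setting.

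The library kit does not mark strand, and the annotated span of 29 of the 52 tested members overlaps that of another gene. Many of these other genes are small RNA genes, pseudogenes or uncharacterized loci, and shared exons were not checked. Reads cannot be told apart only where transcribed parts of both genes coincide. The median was -0.24 for the 29 members with such an overlap of spans and -0.26 for the 23 without. NIPAL3 starts 758 bases from C1orf201 (now STPG1), which runs the other way and had a log2 fold change of -0.18. The annotated span of C1orf201 also overlaps those of NIPAL3 and GRHL3. TMEM50A starts 80 bases from C1orf63 (-0.07).

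**Figure D2:**
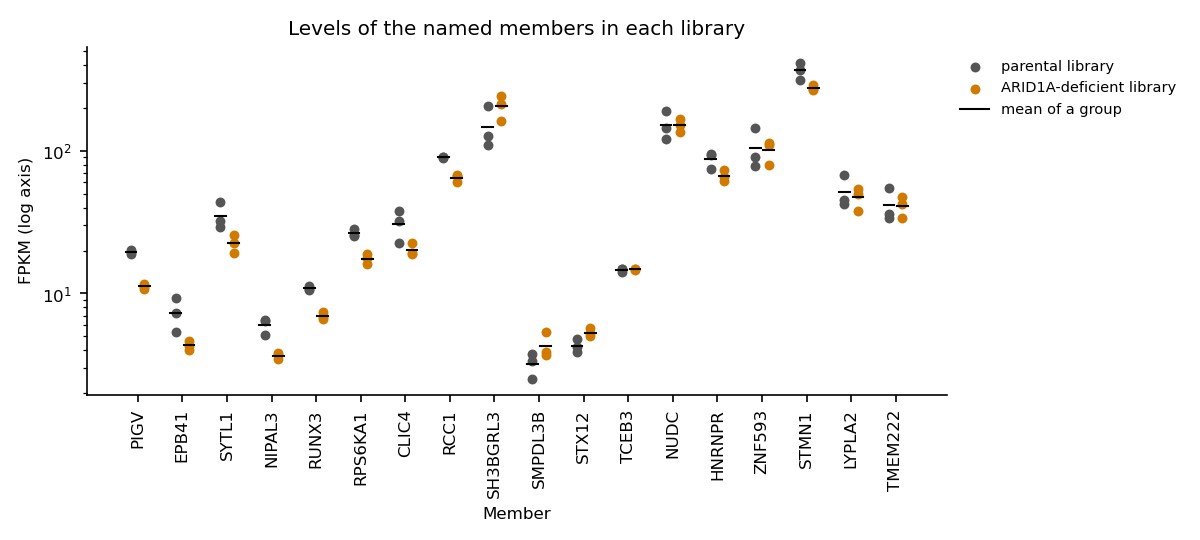
FPKM (log axis) of 18 members in each library: the 8 lowest and 5 highest log2 fold changes among members with a mean of at least 3 FPKM and the most abundant member of each group of roles. PIGV, RUNX3, RPS6KA1 and RCC1 form separate groups with little spread, while SH3BGRL3, NUDC, ZNF593, LYPLA2 and TMEM222 spread widely and overlap.

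The shift was present in each ARID1A-deficient library. Relative to each gene's parental mean, the median of the 52 tested members was -0.28, -0.29 and -0.26 in ARID1A-deficient libraries 1, 2 and 3 on the log2 scale, and -0.05, 0.04 and -0.00315 in parental libraries 1, 2 and 3. Over 11115 tested genes on other chromosomes the same medians lay between -0.0130 and 0.00600 in all 6 libraries. Members varied among themselves with an SD of 0.29 in log2 fold change.

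**Figure D3:**
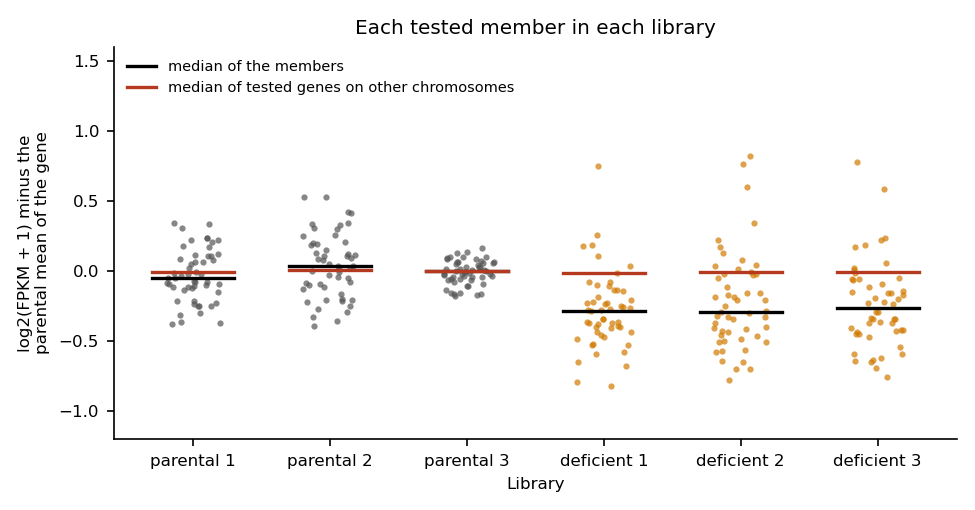
Log2(FPKM + 1) of each tested member minus its parental mean, by library, with the median of the members (black) and of tested genes on other chromosomes (red). The 3 ARID1A-deficient medians of the members lie from -0.29 to -0.26, below all 3 parental medians, while the red lines stay near 0.

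Transcript length moved with part of the spread. Parental library 2 had relatively higher values for short transcripts and parental library 1 for long ones. Among the 26 members with the shorter transcripts (at most 3002 bases, the members' median), parental library 2 was the highest parental library in 20, and among the 26 longer ones parental library 1 was the highest in 18. The longer members had a median log2 fold change of -0.36 and the shorter ones -0.16. Tested genes on other chromosomes split at the same length had medians of -0.05 and 0.04. After each library was corrected for its trend with length, the medians of the longer and shorter members were -0.32 and -0.20, and that of all tested members -0.23. Across the 52 members Pearson's r between log2 fold change and log2 length was -0.275 before and -0.0958 after that correction, and 0.0942 before it between log2 fold change and mean level, as a description over genes that share the same 6 libraries.

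The shift was not confined to the listed genes. Of the 76 unlisted rows between CDC42 and EPB41 apart from ARID1A, 39 were tested, with 30 below 0 and a median of -0.20. That median was -0.27 for the 30 protein-coding ones and -0.11 with no filter on low values. Of the 39, 12.8% passed as lower, against 8.11% of all tested genes, and 1 as higher (background 7.82%). The higher one was PTAFR, named after its values were seen, with means of 0.357 FPKM in parental and 0.811 FPKM in ARID1A-deficient libraries. PTAFR reached the minimum mean only through the ARID1A-deficient group, so its call supports nothing. The lower ones numbered 5 (among them KDM1A, E2F2, TMEM57 and TAF12, named after their values were seen). The 5 became 9 without parental library 2 and 3 without parental library 3 and without any of the 3 ARID1A-deficient libraries. The share lower over all tested genes was 16.4% without parental library 2 and 3.42% to 4.67% in those other settings. FAM54B, the older symbol of MTFR1L, measured 16.6, 21.6 and 19.7 FPKM against 14.6, 14.3 and 15.04 FPKM, without overlap (log2 fold change -0.37, SE 0.11). The 57 tested genes next to the list on the side of the arm's end had a median of -0.21, and the 57 on the centromere side -0.28. Among the members, the median was -0.26 for the 28 on the end side of ARID1A and -0.25 for the 24 on its centromere side. In 3 consecutive sections of the list the medians were -0.25, -0.23 and -0.28, and ARID1A lies within the second section, whose median was not the lowest.

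With genes ordered as in RefSeq on GRCh38, medians along chromosome 1 over 41 neighbouring tested genes were at or below -0.1 in 334 consecutive windows, from the one centred on MRPL20 near the end of 1p to the one centred on UTP11L, 129 tested genes beyond ARID1A towards the centromere. This limit of -0.1 was set after the values were seen, and it placed the end of the run by these same log2 fold changes. A difference between the genes up to UTP11L and those beyond it is therefore favoured by that choice and is only a description. The 360 tested genes from the end of 1p to UTP11L had a median log2 fold change of -0.22, with 80.8% below 0, and the other 914 tested genes of chromosome 1 had a median of 0.03, with 45.8% below 0. Without the members, the median on the end side was still -0.21. Across 14 settings of the fit, which include each library left out, the median of the 360 genes lay between -0.26 and -0.17 and that of the genes beyond it between 0.0057 and 0.072. The lowest window (-0.29) was centred on CASZ1, 130 tested genes from ARID1A, and the windows centred on members lay between -0.28 and -0.21. The members thus lay inside a longer run of lower genes. Medians also differed between whole chromosomes, from -0.18 on chromosome 4 to 0.24 on chromosome 13.

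**Figure D4:**
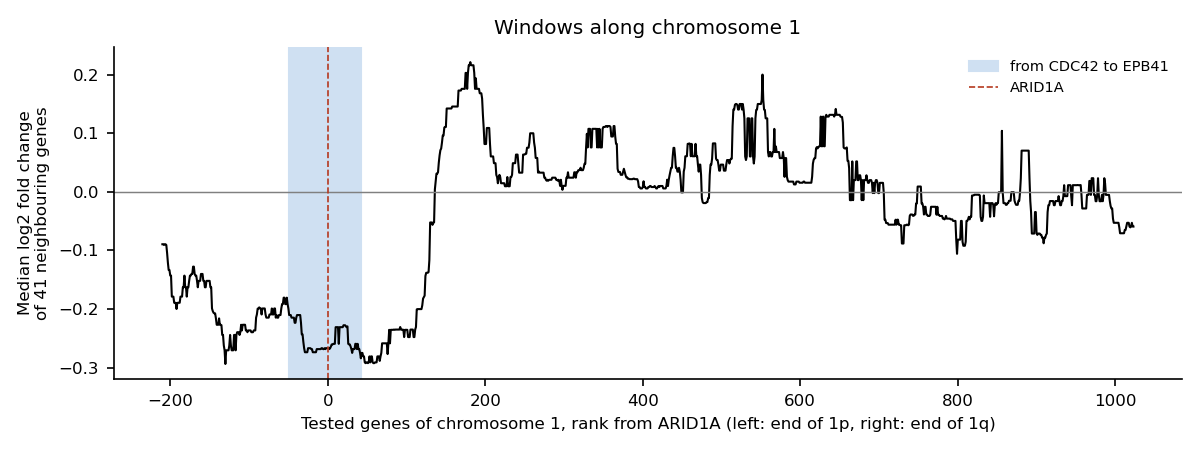
Median log2 fold change in windows of 41 neighbouring tested genes of chromosome 1, by rank of the central gene from ARID1A, with the stretch from CDC42 to EPB41 shaded. Windows stay at or below -0.1 from MRPL20 to UTP11L and reach 0.22 at most beyond it.

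Paralogs of the members were compared as genes of like function at other places in the genome. Of 63 listed paralogs of 36 members, 62 were found and 46 tested. Of the 46, 21 were below 0 (background 52.2%), with a median log2 fold change of 0.03. In limma, adjusted over all tested genes, 5 passed as lower (10.9%, background 8.11%) and 8 as higher (background 7.82%). Of the tested paralogs, 15 lie on chromosome 6, and 14 of these 15 were above 0 (median 0.35), where the median of all 544 tested genes of that chromosome was 0.09. Without them the median was -0.13, with 20 of 31 below 0, 5 lower and 4 higher. The lower ones also lie on chromosomes with differing backgrounds. RHOQ is on chromosome 2, where the median of all tested genes was -0.16. YTHDF3, TCEA1 and MTFR1 are on chromosome 8 (-0.15), and EPB41L1 is on chromosome 20 (0.05). How far the chromosome accounts for the paralogs' values was not tested. The 8 higher paralogs became 4 when parental library 3 was left out, and 2, 3 and 1 when ARID1A-deficient library 1, 2 or 3 was. In these settings the 1003 higher calls over all tested genes became 570, 663, 574 and 522. The 5 lower ones became 8 without parental library 2 and 3 without each other library. The 1040 lower calls over all tested genes became 2104 without parental library 2 and 438 to 797 without each other library. In 40 pairs of a tested member and a tested paralog, the member had the lower log2 fold change in 32, a count that the choice of the members favours.

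Some paralogs rose while their member had a log2 fold change below 0. PNRC1, on chromosome 6, rose 1.70-fold from 11.9, 11.8 and 12.7 FPKM to 21.1, 19.7 and 21.1 FPKM (limma adjusted p = 0.00134), beside a log2 fold change of -0.26 for PNRC2. HMGN1, on chromosome 21, rose 1.43-fold (limma adjusted p = 0.0361), but not with 5 of the 6 libraries left out in turn (highest adjusted p = 0.158). WASF3, PHACTR2 and FUCA2 also passed as higher, with limma adjusted p between 0.0193 and 0.0416 and with WASF2, PHACTR4 and FUCA1 below 0, and each of these calls ended with some library left out. SYTL5, a paralog of SYTL1 on chromosome X, had 0.0873, 0.0743 and 0.0854 FPKM in parental and 1.10, 0.715 and 0.967 FPKM in ARID1A-deficient libraries. SYTL5 and WASF3 reached the minimum mean only through the ARID1A-deficient group, so their 2 calls among the 8 higher ones support nothing.

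The other paralogs that passed had a log2 fold change of the same sign as their member, except TCEA1, whose member was not tested. EPB41L1, on chromosome 20, fell 2.67-fold from 7.999, 6.62 and 7.76 FPKM to 2.81, 2.72 and 2.87 FPKM (limma adjusted p = 0.000525, log2 fold change -1.15), beside -0.62 for EPB41. The other listed paralogs of EPB41 went the other way without passing. EPB41L2, on chromosome 6, had a log2 fold change of 0.51 (limma adjusted p = 0.0571). EPB41L3, on chromosome 18, was under the minimum mean and not tested, with means of 0.0604 FPKM in parental and 0.876 FPKM in ARID1A-deficient libraries. SH3BGRL, on chromosome X, and SH3BGRL2, on chromosome 6, rose by 0.48 and 0.55 on the log2 scale (limma adjusted p = 0.0175 and 0.00905), near the 0.51 of SH3BGRL3. These 2 calls ended with some libraries left out (highest adjusted p = 0.0697 and 0.0539). YTHDF3, on chromosome 8, fell by 0.64 on the log2 scale (limma adjusted p = 0.0333, and 0.129 at most with single libraries left out), RHOQ, on chromosome 2, by 0.39 (0.0354, and 0.134 at most). TCEA1, on chromosome 8, fell by 0.49 (limma adjusted p = 0.00662), while TCEA3 was nearly undetected. MTFR1, on chromosome 8, fell by 1.21 (limma adjusted p = 0.00123), beside -0.37 for MTFR1L in its row under FAM54B. Whether a paralog's difference is itself unlike that of its member was not tested.

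**Figure D5:**
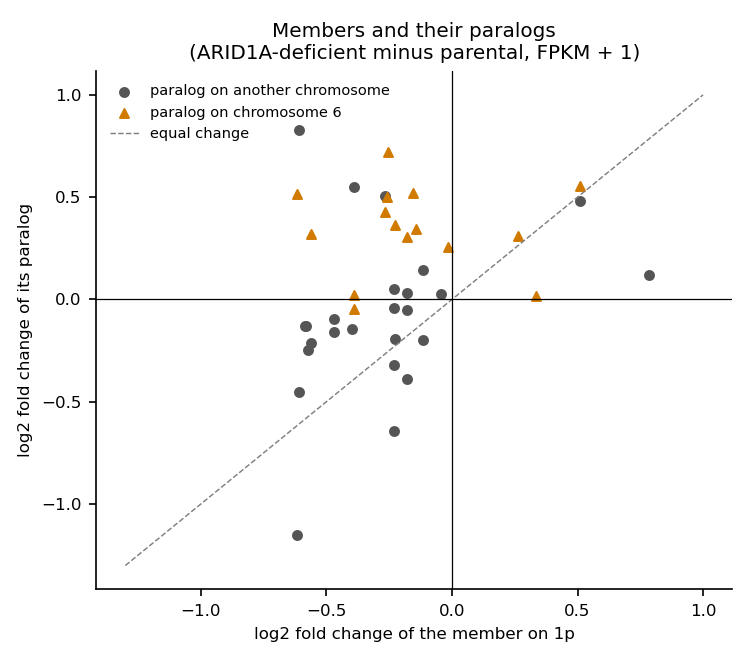
Log2 fold change of each tested member (x axis) against that of its tested paralog (y axis), 40 pairs, triangles for paralogs on chromosome 6. Most pairs lie above the dashed line of equal change, all but 1 of the 15 triangles lie above 0 on the y axis, and the EPB41 and EPB41L1 pair lies lowest.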

How the data were processed

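RNA from 3 parental and 3 ARID1A-deficient samples was measured per gene in FPKM, deposited by the authors as 1 file per sample. Build GRCh37 (hg19) and the tools Cuffdiff 2.2.1.5, TopHat2 2.1.1 and Cuffnorm 2.2.1.2 are named in the submitters' processing notes, without the scaling option. The libraries correlated at r of 0.941 to 0.965 within and 0.919 to 0.943 between groups. The members and lists were chosen with earlier results of these data known.

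Of 23273 rows, 28 with symbols turned into dates were left out, and 17832 were above 0 in at least 1 library. Log2(FPKM + 1) values were fitted for the 12826 genes whose mean reached 0.5 FPKM, with limma 3.58.1 in R 4.3.3 (mean trend, robust), with Benjamini-Hochberg adjustment over all of them and a threshold of 0.05. The script was tested on simulated data. Gene order and promoters came from RefSeq GRCh38.p14. Transcript length was that of a gene's longest protein-coding transcript in GENCODE 29, a definition chosen after the data were seen, and covered 90.4% of tested genes.

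Values in every library are printed for ARID1A, the first and last member, the 8 lowest and 5 highest log2 fold changes among members with a mean of at least 3 FPKM, and the most abundant member of each group of roles. LINC00339 and TMEM200B, just outside the list, are given here. LINC00339 had parental values of 17.5, 25.4 and 22.0 FPKM against 15.4, 20.4 and 19.2 FPKM, and TMEM200B 0.561, 1.32 and 0.639 FPKM against 0.240, 0.380 and 0.319 FPKM. GRHL3, ASAP3, WASF2, IL22RA1, PAFAH2, FUCA1 and FAM54B were added after their values were seen. Alternatives were another pseudocount, filter, scaling or length correction, a replicate block, and each library left out.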

Additional observations from a re-analysis of the deposited data

How the results depend on the processing

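The members' median log2 fold change of -0.26 was -0.21 after centring on other chromosomes and -0.30 to -0.26 with single libraries left out. Members that passed numbered 15 lower and 1 higher, and 3 to 24 and 1 to 2 with single libraries left out. The higher count was 0 at a minimum mean of 3 FPKM. Unlisted neighbours that passed, 5 lower and 1 higher, ranged over 3 to 9 and 0 to 2 with single libraries left out. They were 13 and 2 after correction for length, where the share lower over all tested genes was 12.6%, against 8.11% in the main fit. The higher count of the unlisted neighbours was 0 at a minimum of 3 FPKM and 2 with no filter. On the distal flank 10 passed as lower, 6 after centring and 3 to 15 with single libraries left out. On the proximal flank 15 passed as lower and 4 as higher: 8 lower after centring, 24 lower after length correction, 2 higher at a minimum of 3 FPKM, and 5 to 21 and 1 to 4 with single libraries left out. The proximal median of -0.28 then ranged from -0.32 to -0.22. For the rest of chromosome 1, the median of -0.0047 was 0.042 after centring and -0.018 to 0.013 with single libraries left out. There, 74 passed as lower and 81 as higher, 113 and 122 after length correction, and 30 to 146 and 41 to 169 with single libraries left out. The paralogs' median of 0.03 was -0.046 at a minimum of 3 FPKM, -0.13 without chromosome 6, and -0.013 to 0.044 with single libraries left out. Their 8 higher calls were 4 at a minimum of 3 FPKM and 4 without chromosome 6, and their 5 lower and 8 higher calls ranged over 3 to 8 and 1 to 11. The cause was not tested. Over all tested genes, 2043 passed, 3029 after length correction and 960 to 4113 with single libraries left out. The lower calls among them numbered 1040 (8.11%), 1619 (12.6%) after length correction and 843 (6.57%) after centring. Centring moved the median of all genes from -0.01 to 0.03.

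Same-numbered libraries of the groups had correlations of deviations of 0.219, 0.217 and -0.0131. Parental library 3 correlated best with ARID1A-deficient library 1 (0.0825). With 3 libraries per group, these values cannot decide whether the numbers pair the samples. With a replicate block, 4049 of all tested genes passed. Of all tested genes, 2188 passed as lower (17.1%, against 8.11% without the block) and 1861 as higher (1003 without it). Beside that background, 23 members were lower and 3 higher, and 14 and 2 unlisted neighbours. In the flanks, 18 distal and 25 proximal genes were lower. For the rest of chromosome 1, 152 genes were lower and 150 higher, and 14 paralogs were higher. Total fragment numbers are not given, so the counting error of low values such as those of GRHL3 and SYTL5 is unknown.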
